A study of Homo sapiens with 6 samples.

Results

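Tight junction genes were examined in OVCAR5, an ovarian cancer line long kept in culture and labelled epithelial, as 9 genes fixed by name: the claudins CLDN1, CLDN3, CLDN4, CLDN7 and CLDN12, the MARVEL-domain proteins OCLN and MARVELD2, the adhesion molecule F11R and the scaffold TJP1. They are 9 of the 60649 gene rows in the count table, found by their identifiers, and all 9 passed the filter on low counts. The comparison asks how their mRNA differs between cells that overexpress METTL3, the catalytic subunit of the writer of the RNA mark m6A, and control cells. Each group, METTL3-overexpressing and vector control, was represented by 3 poly(A) RNA-seq libraries. Both groups were transduced with lentivirus, one with a METTL3 construct and the other with the empty vector, and both were selected with puromycin to give stable lines. No drug treatment is named for any of the 6 libraries. The series' design text calls the control cells parental instead, and the labels do not say whether a line is 1 clone or a pool, or whether the 3 libraries of a group came from separate cultures. The p-values below therefore measure only the spread between these libraries, which may be technical.

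Tight junctions seal the space between neighbouring epithelial cells near their apical side and hold apical and basolateral membrane proteins apart. Claudins form the strands that set which ions and solutes pass, occludin and tricellulin (MARVELD2) sit in the same strands with tricellulin at the corners where cells meet, and JAM-A (F11R) is an immunoglobulin-like adhesion protein. ZO-1 (TJP1) is the cytoplasmic scaffold that ties these membrane proteins to actin. Claudins 3, 4 and 7 are well known for their high expression in epithelial ovarian cancers. Snail and ZEB repressors bind E-boxes in the promoters of epithelial junction genes, and grainyhead-like factors such as GRHL2 activate several of them.

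Because those factors belong to the genes described further on, the promoters of the members were searched for their motifs. RefSeq promoter windows of GRCh38.p14, running from 250 bases before to 50 bases after each annotated start, were present for 8 of the 9 members (13 starts). F11R was the member without one. The E-box was searched as CACCTG on both strands, so it also reads CAGGTG, and the grainyhead core as ACCGGT, which is its own reverse complement. The E-box lay in 5 of these 13 windows, and in 3 of the 8 at the start of the MANE Select transcript (CLDN3, CLDN7 and OCLN), where 20.6% of all 35116 promoter windows held it. The grainyhead core lay in 1 of the 13, that of MARVELD2, where 1.83% of all windows held it. CLDN7 held 5 E-boxes, the highest number among the members. The following 30-base stretches are shown because they hold these matches. They read 5′ to 3′ on the strand of the gene, with the motif in capitals.
CLDN7, 20 and 9 bases before the start, chr17:7262476-7262505, reverse strand: atatactCAGGTGcgcccCACCTGtccgcc
CLDN7, 135 bases before the start, chr17:7262596-7262625, reverse strand: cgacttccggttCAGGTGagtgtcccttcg
CLDN7, 174 bases before the start, chr17:7262635-7262664, reverse strand: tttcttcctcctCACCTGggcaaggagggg
OCLN, 133 bases before the start, chr5:69492645-69492674, forward strand: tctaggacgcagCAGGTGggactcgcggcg
CLDN3, 36 bases after the start, chr7:73770221-73770250, reverse strand: cccacaaagccacaggCAGGTGcaggcgca
TJP1, 88 bases before a start other than the MANE one, chr15:29969120-29969149, reverse strand: gcggccggcgcgCAGGTGgcccggcctcgc
MARVELD2, 3 bases after the start, chr5:69415107-69415136, forward strand: cgggagcccgatACCGGTttcagagtcctg
A match describes the letters only, and occupancy of these places was not measured.

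The libraries were deep, with total counts of 96633925 to 125463386, and the members had 1321 to 42142 counts per library. Levels are given as CPM, the counts of a gene relative to the library total after TMM scaling. METTL3 itself, in the order of replicates 1, 2 and 3, was at 152, 165 and 175 CPM where overexpressed and at 80.6, 68.6 and 71.6 CPM with the vector, so it was higher in every library labelled for it. All 5 epithelial markers (EPCAM, KRT8, KRT18, KRT19 and CDH1) were above 1 CPM in every library, with sums of 6912 to 7906 CPM with METTL3 and 5593 to 8834 CPM with the vector. Of 5 markers each, 3 fibroblast, 4 endothelial and 4 immune ones were under 1 CPM in every library. The fibroblast sums were 17.53 to 20.03 CPM with METTL3 and 9.13 to 20.3 CPM with the vector, the endothelial sums 1.65 to 1.88 and 0.991 to 1.55 CPM, and the immune sums, nearly all LYZ, 28.2 to 36.5 and 33.7 to 57.1 CPM. The part of these markers in the results was not tested. Of the ovarian markers PAX8 and MUC16 were above 1 CPM and WT1 under 1 CPM in every library, while of 5 gastrointestinal markers CDX2 and VIL1 were above 1 CPM and CDX1 was at 0. The replicate 1 libraries of both groups stood apart from the other 4 in 6 of the 9 members. They lay above the other 4 in 5 members and below in 1, where 17.0% and 15.4% of tested genes did so. Results are given on all 6 libraries and on replicates 2 and 3 alone, a choice made with earlier results of these data known.

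**Figure D1:**
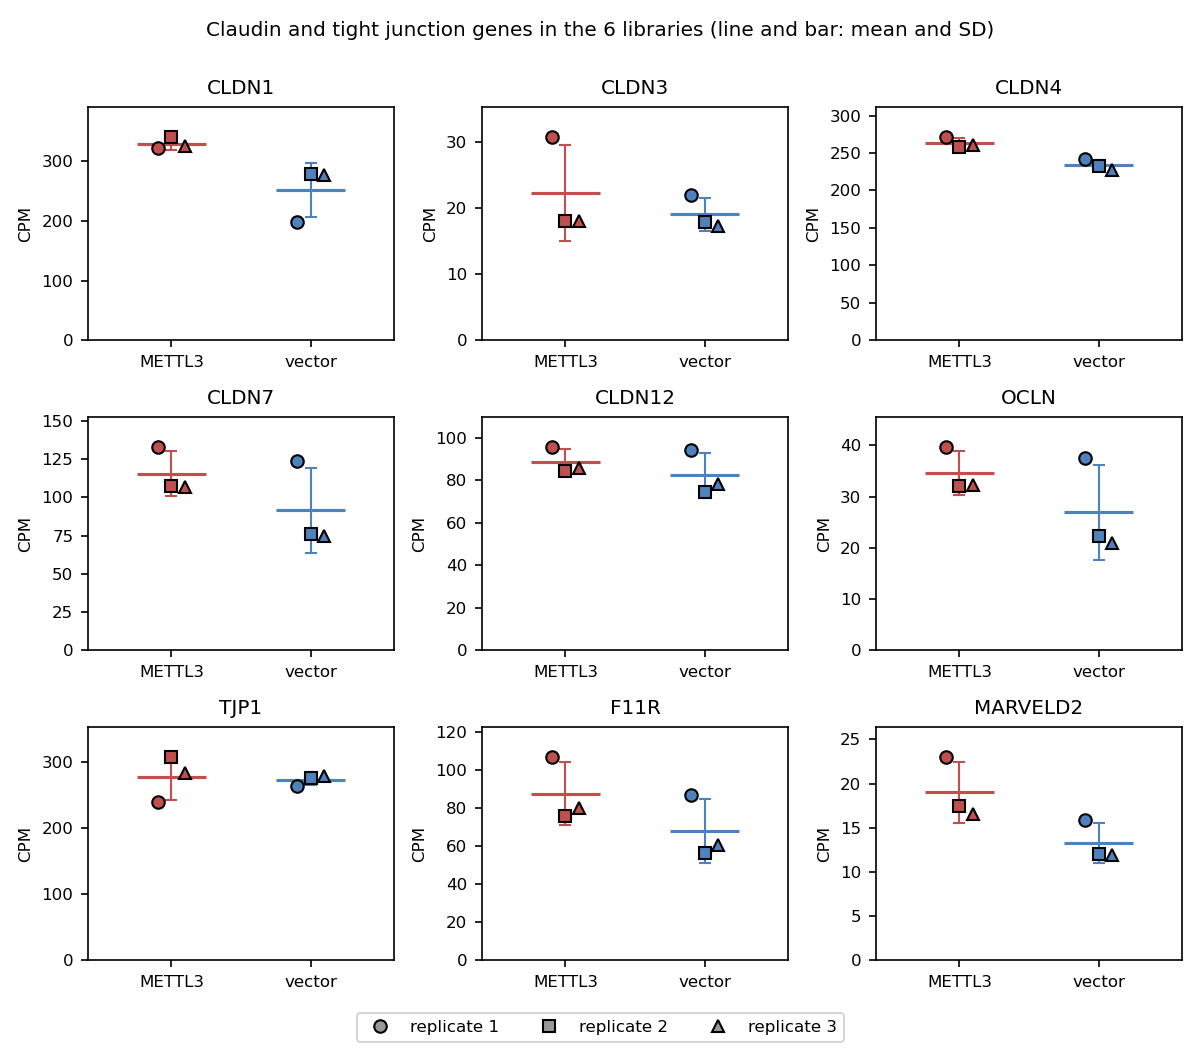
Level of each member in every library, in CPM on a linear axis from 0, with lines for the mean, bars for the SD, points for the 3 METTL3-overexpressing and the 3 vector control libraries and a marker shape for each replicate number. CLDN1, CLDN4 and MARVELD2 have all METTL3 points above all vector points, and the replicate 1 points of both groups lie above the other 4 for CLDN3, CLDN7, CLDN12, OCLN and F11R.

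CLDN1, CLDN4 and MARVELD2 were higher in every METTL3-overexpressing library than in any vector library, 3 of 9 members where 8.47% of all 22038 tested genes did the same. The estimated log2 fold change (METTL3 over vector) on all 6 libraries was above 0 for all 9 members, with a median of 0.34, against a median of -0.02 and 47.3% above 0 over all tested genes. Within the replicate numbers, 8 of 9 members were higher with METTL3 in each of the 3 pairs, TJP1 being the exception, against 19.6% of tested genes. None of the 9 members passed edgeR's quasi-likelihood test on all 6 libraries at an adjusted p under 0.05, and neither did any other gene (0 called, 0.0% of those tested). At an unadjusted p under 0.05 the same test called 2 members, CLDN1 and MARVELD2, and 1830 genes in all (8.3%, or 4.4% higher with METTL3). DESeq2 called 280 genes (1.27%) and none of the members. On replicates 2 and 3 alone, edgeR called 6 of 9 members higher and none lower, where 6.66% of 22046 tested genes were called higher, or 11.3% of the 8852 whose mean was at least that of the lowest member, 16.2 CPM. On the same 4 libraries DESeq2 also called 6 members (6.99% of all tested genes higher), and 7 were called once a trend in GC content and length was removed (12.2%). In these bulk libraries, more cells expressing a gene and more mRNA in each cell cannot be told apart.

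**Figure D2:**
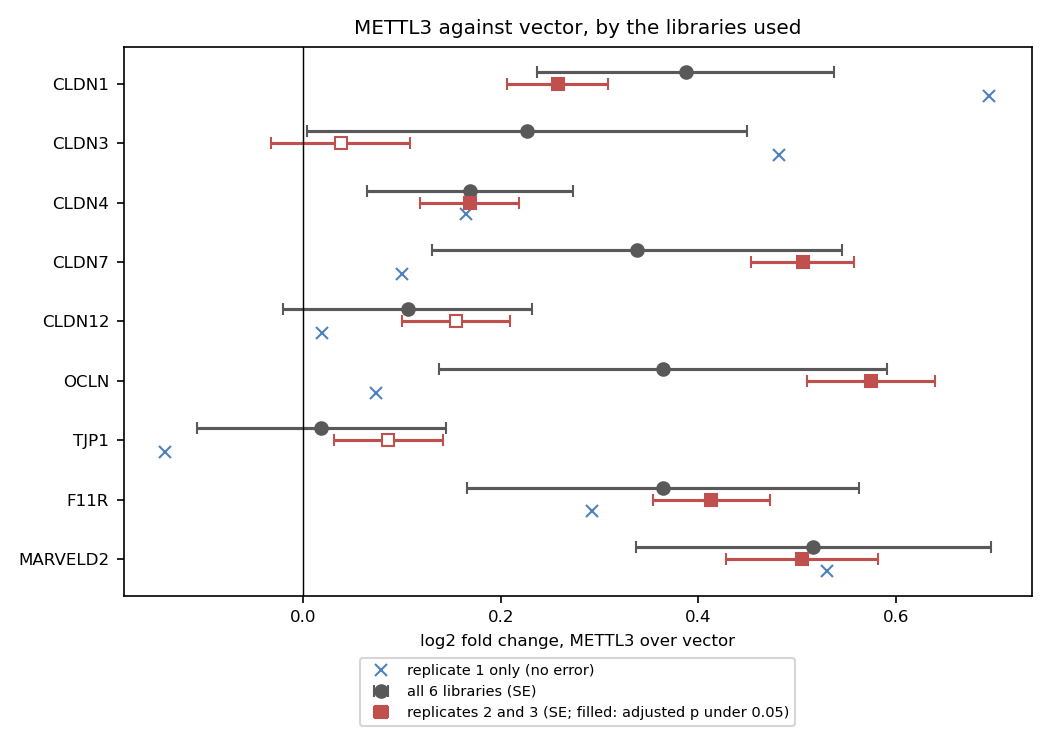
Log2 fold change of each member, METTL3-overexpressing over vector control, on all 6 libraries and on replicates 2 and 3, with bars of 1 standard error from edgeR, filled squares for an adjusted p under 0.05 on replicates 2 and 3, and the ratio of the 2 replicate 1 libraries as a separate mark. The estimates for all 6 libraries have the wider bars, and OCLN and CLDN7 lie at 0.57 and 0.51 on replicates 2 and 3 but at 0.07 and 0.10 in replicate 1.

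CLDN1, a barrier-forming claudin, lies on the reverse strand of chromosome 3 (GRCh38, 190305707 to 190322446, ENSG00000163347.6). Replicates 1, 2 and 3, an order kept for all genes, gave 322, 340.1 and 326 CPM with METTL3 and 199, 279 and 278 CPM with the vector. Vector replicate 1 was the low library, and the groups did not overlap. The means were 329 ± 9.54 and 252 ± 45.7 CPM (SD, n = 3 each). The log2 fold change was 0.39 on all 6 libraries (standard error 0.151, adjusted p = 0.567, edgeR's quasi-likelihood test). On replicates 2 and 3, CLDN1 rose by 19.6% (log2 fold change 0.26, standard error 0.0513, adjusted p = 0.00317, edgeR). The ratio between the replicate 1 libraries was larger, at 0.69 on the log2 scale.

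CLDN3 and CLDN4, which bind the same clostridial enterotoxin, are neighbours on chromosome 7, 29.3 kb apart. CLDN3 (73768997 to 73770270, reverse strand, ENSG00000165215.6) was at 30.6, 18.1 and 18.0 CPM with METTL3 and at 21.9, 17.9 and 17.3 CPM with the vector. METTL3 replicate 1 was the highest library and vector replicate 1 the next, and the groups overlapped. Its log2 fold change was 0.23 on all 6 libraries (standard error 0.223, adjusted p = 0.774, edgeR) and 0.04 on replicates 2 and 3 (standard error 0.0706, adjusted p = 0.795, edgeR). Without METTL3 replicate 1, a fit that kept the higher vector replicate 1, it was -0.05. The ratios within replicates 2 and 3 were 0.02 and 0.06 on the log2 scale. CLDN4 (73799542 to 73832690, forward strand, ENSG00000189143.10) was at 271, 257 and 261 CPM with METTL3 and at 241, 233 and 228 CPM with the vector. Here the groups were tight and did not overlap, with means of 263 ± 6.95 and 234 ± 6.95 CPM (SD, n = 3 each). Its log2 fold change was 0.17 on all 6 libraries (standard error 0.104, adjusted p = 0.656, edgeR) and also 0.17 on replicates 2 and 3, a rise of 12.4% (standard error 0.0501, adjusted p = 0.0352, edgeR).

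CLDN7 and CLDN12 are the other claudins of the set. CLDN7, an EPCAM-binding claudin found along the lateral membrane as well as in the junction, lies on the reverse strand of chromosome 17 (7259903 to 7263983, ENSG00000181885.18). It was at 133, 107 and 107 CPM with METTL3 and at 124, 75.8 and 74.8 CPM with the vector. Vector replicate 1 reached above METTL3 replicates 2 and 3, so the groups overlapped. The log2 fold change was 0.34 on all 6 libraries (standard error 0.207, adjusted p = 0.656, edgeR). On replicates 2 and 3 CLDN7 rose by 42.0% (log2 fold change 0.51, standard error 0.0521, adjusted p = 1.27e-05, edgeR). In replicate 1 the ratio was 0.10 on the log2 scale. CLDN12, a claudin that lacks the PDZ-binding tail of most of the family, lies on the forward strand of chromosome 7 (90383721 to 90513402, ENSG00000157224.16). It was at 95.5, 84.4 and 85.9 CPM with METTL3 and at 94.2, 74.5 and 78.3 CPM with the vector, again with both replicate 1 libraries on top and overlapping groups. Its log2 fold change was 0.11 on all 6 libraries (standard error 0.126, adjusted p = 0.815, edgeR) and 0.15 on replicates 2 and 3 (standard error 0.0548, adjusted p = 0.0758, edgeR). With the replicate number as a block on those 4 libraries its adjusted p was 0.00398 by edgeR, which makes 7 members called higher where 11.3% of tested genes were. Fits on these 4 libraries leave few residual degrees of freedom for each gene, and fewer with the block. Their p-values on replicates 2 and 3, with or without the block, therefore rest largely on the spread pooled over genes.

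OCLN and MARVELD2 are neighbours on the forward strand of chromosome 5, 48.0 kb apart. OCLN, which encodes occludin, the first integral protein identified in tight junctions (69492292 to 69558104, ENSG00000197822.12), was at 39.6, 32.1 and 32.3 CPM with METTL3 and at 37.6, 22.2 and 20.9 CPM with the vector. Vector replicate 1 lay above METTL3 replicates 2 and 3, so the groups overlapped. Its log2 fold change was 0.36 on all 6 libraries (standard error 0.227, adjusted p = 0.658, edgeR). On replicates 2 and 3 OCLN rose by 48.9%, the largest rise among the members (log2 fold change 0.57, standard error 0.0647, adjusted p = 2.91e-05, edgeR), whereas the ratio in replicate 1 was 0.07 on the log2 scale. Leaving out vector replicate 1 alone, OCLN was the 1 member called by edgeR (log2 fold change 0.68, adjusted p = 0.0447), where 0.676% of tested genes were called higher. That fit kept METTL3 replicate 1, at 39.6 CPM, without vector replicate 1, at 37.6 CPM, so the groups were not balanced for replicate 1.

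MARVELD2 (69415065 to 69444330, ENSG00000152939.17), the gene of tricellulin, was at 23.0, 17.5 and 16.6 CPM with METTL3 and at 15.9, 12.03 and 11.96 CPM with the vector. The groups did not overlap, and replicate 1 was the highest library within each. It had the largest log2 fold change of the members on all 6 libraries, 0.52 (standard error 0.18, adjusted p = 0.547, edgeR). On replicates 2 and 3 it rose by 41.9% (log2 fold change 0.50, standard error 0.0768, adjusted p = 0.000388, edgeR), and the replicate 1 ratio of 0.53 on the log2 scale was of the same size.

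F11R (chromosome 1, 160995211 to 161021343, reverse strand, ENSG00000158769.18) was at 107, 76.1 and 79.9 CPM with METTL3 and at 87.1, 56.3 and 60.6 CPM with the vector. Each METTL3 library was above the vector library of its number, and vector replicate 1 made the groups overlap. Its log2 fold change was 0.36 on all 6 libraries (standard error 0.198, adjusted p = 0.641, edgeR), and on replicates 2 and 3 F11R rose by 33.2% (0.41, standard error 0.0592, adjusted p = 0.000234, edgeR). TJP1 (chromosome 15, 29699367 to 29968915, reverse strand, ENSG00000104067.17) was at 239.5, 307 and 283 CPM with METTL3 and at 264, 276 and 279 CPM with the vector. It was the 1 member whose replicate 1 libraries were the lowest 2 of the 6, and its groups overlapped. The log2 fold change of TJP1 was 0.02 on all 6 libraries (standard error 0.126, adjusted p = 0.977, edgeR) and 0.09 on replicates 2 and 3 (standard error 0.055, adjusted p = 0.356, edgeR). The replicate 1 ratio was -0.14 on the log2 scale.

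For the single values of CLDN1, CLDN4 and MARVELD2, an exact two-sided permutation test over the 6 libraries gave p = 0.1, the smallest that 3 libraries against 3 allow. Both replicate 1 libraries lay above the other 4 for 5 members, CLDN3, CLDN7, CLDN12, OCLN and F11R, where 17.0% of tested genes showed this, and below them for TJP1, where 15.4% did. Some reads may be shared with other genes, since how strand and multi-mapping reads were counted is not given in the sources used here. F11R shares 36.6% of its exon bases with the same-strand gene ENSG00000270149, which had 6 to 25 counts per library. CLDN12 shares up to 7.92% of its exon bases with any 1 of the same-strand genes CDK14, GTPBP10, PTTG1IP2 and ENSG00000273299, CLDN7 shares 10.8% with ENSG00000262302, which had 0 counts, and 38 bases with ELP5 on the opposite strand, and the pseudogene OCLNP1 had 11 to 26 counts.

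Levels of different members can be compared only per length, here as CPM per kb of all annotated exons. CLDN1 had the highest mean over the 6 libraries, 80.1 CPM per kb, followed by CLDN4 at 52.9 and CLDN7 at 41.5 CPM per kb. The library ranges of CLDN1 and CLDN4 overlapped (54.8 to 93.7 and 48.5 to 57.6 CPM per kb), as did those of CLDN4 and CLDN7. TJP1 followed at 24.3 CPM per kb, with no library reaching the lowest value of CLDN7. CLDN3 at 16.2, F11R at 15.4 and CLDN12 at 12.7 CPM per kb overlapped with each other. MARVELD2 at 3.01 and OCLN at 2.73 CPM per kb were the lowest and overlapped as well. With the length of the MANE Select transcript, an alternative chosen after seeing the data, CLDN4 came first at 147 CPM per kb and CLDN1 second at 84.3, CLDN12 moved from place 7 to place 5, and OCLN and MARVELD2 changed places. The order within these neighbours therefore depends on which length is used.

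**Figure D3:**
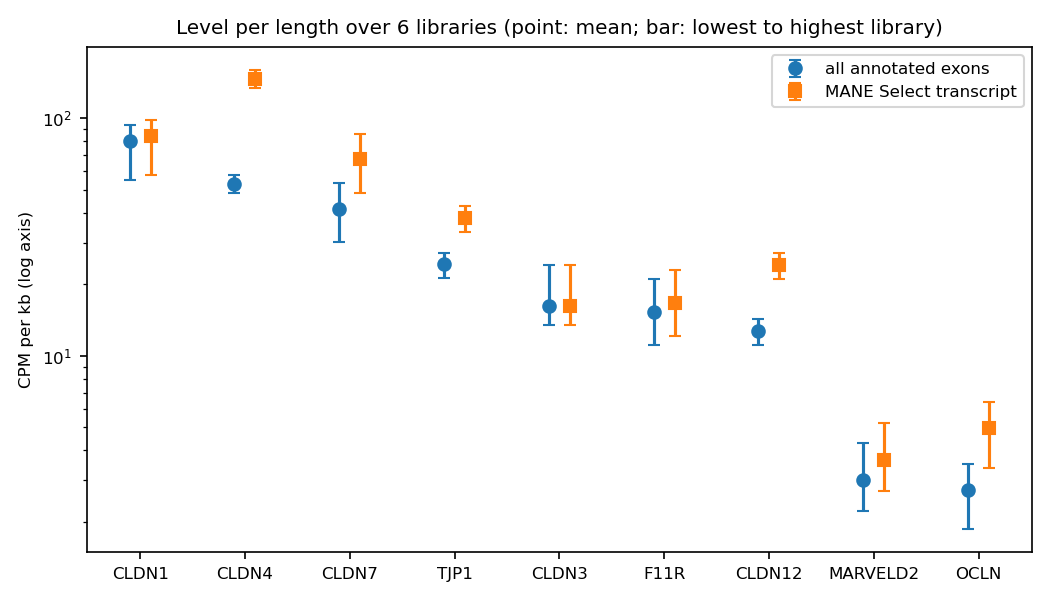
Level of the members per length on a log axis, in CPM per kb, with the mean over the 6 libraries as a point and the lowest to highest library as a bar, for the length of all annotated exons and of the MANE Select transcript. CLDN1, CLDN4 and CLDN7 are the highest by both lengths, and MARVELD2 and OCLN are the lowest.

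The members varied together in part. Over the 6 libraries, 10 of the 36 pairs of members had a Pearson r of log2 CPM above 0.9, 11 pairs were below 0, and the median was 0.73. These values are descriptions over 6 libraries that share their groups and replicate numbers. The share of all gene pairs with such values was not computed. CLDN7 and OCLN had r = 1.00, the highest of all pairs, and CLDN7, OCLN, F11R and CLDN12 were at 0.95 or more with each other. CLDN1 was not close to any other member (-0.18 to 0.55), and TJP1 was negative with every member except CLDN1 (0.26), down to -0.87 with CLDN3. Among the other genes of the lists described next, the most similar gene was CGN for CLDN4 (0.99), ST14 for MARVELD2 (1.00), CRB3 for both CLDN7 (0.99) and F11R (0.98), and PARD6A for OCLN (0.99). For the remaining members it was PATJ for CLDN12 (0.97), CLDN5 for CLDN1 (0.97), GRHL3 for CLDN3 (0.95) and ITCH for TJP1 (0.94). Each of these is the highest value picked from all tested genes of the lists, so high values do not mark a link between 2 genes. CLDN5 and GRHL3 were low, with means of 0.958 and 1.03 CPM over the 6 libraries.

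**Figure D4:**
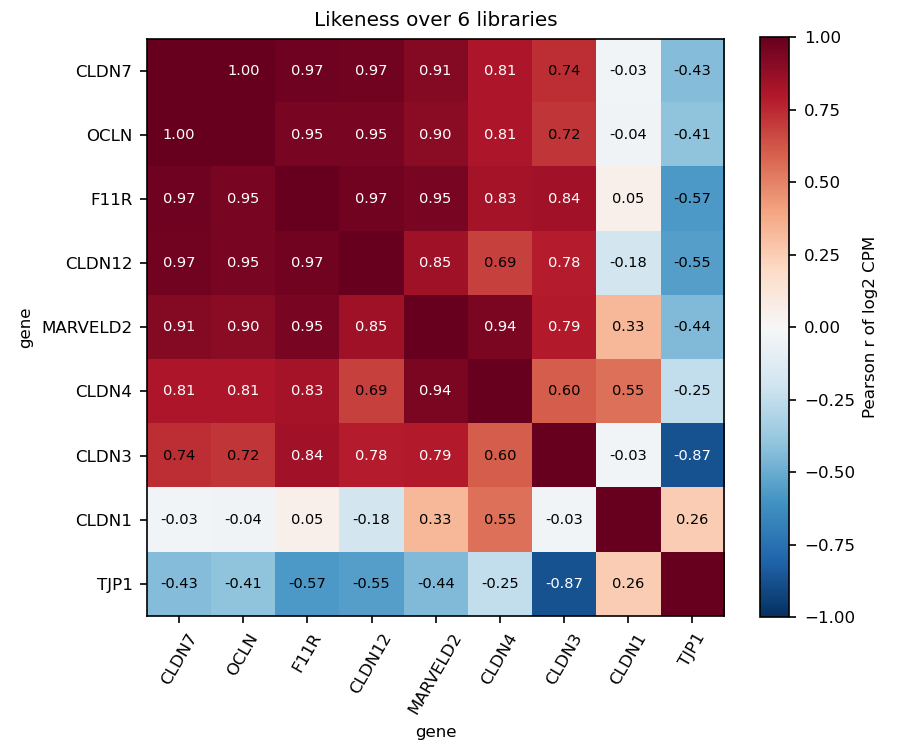
Pearson r of log2 CPM over the 6 libraries for each pair of members, coloured from -1 to 1 with the value in each cell. CLDN7, OCLN, F11R and CLDN12 form a block at 0.95 or more, while CLDN1 and TJP1 are weakly or negatively related to most others.

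The wider tight junction pathway was described by 6 lists holding 91 further genes, of which 79 passed the filter on low counts. On all 6 libraries edgeR called 0 of the 79, with 20 at an unadjusted p under 0.05, and DESeq2 called 7, all higher with METTL3 (among them LSR, CGN, PARD6B, SPINT1, CDH1 and ESRP2). On replicates 2 and 3 edgeR called 25 of the 79 higher and 9 lower, where 6.66% of all tested genes were called higher and 8.59% lower. The members and these lists were chosen with earlier results of these data known, so such counts are descriptions and not independent support. The lists differed in how many genes were called and in which direction. For all genes tested the median log2 fold change on replicates 2 and 3 was -0.00, and for the 9 members it was 0.26. EPCAM and CDH1 are in these lists and also among the epithelial markers whose sums are given above, and CLDN5 is also an endothelial marker.

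Among other claudins, which genes were called depended on the fit. The named ones had the same direction on all 6 libraries as on replicates 2 and 3. Of 20 genes only 11 passed the filter, and on replicates 2 and 3 none was called higher and 2 lower, with a list median log2 fold change of 0.29. On the same 4 libraries, 3 were called higher and 3 lower with the replicate block. With the GC and length trend removed, 3 were called higher and 2 lower. The 3 higher ones were CLDN9, CLDN15 and CLDN23 each time, named after their values were seen. Of 22046 tested genes, the block called 2499 higher (11.3%) and 2951 lower, and the trend fit 2683 higher (12.2%) and 2013 lower. CLDN11, best known from myelin and from the testis, was at 218, 291 and 301 CPM with METTL3 and at 211, 411 and 446 CPM with the vector. The replicate 1 libraries were the lowest of their groups and the groups overlapped. CLDN11 fell by 31.0% on replicates 2 and 3 (log2 fold change -0.54, adjusted p = 1.46e-05, edgeR), its value on all 6 libraries was -0.40 (adjusted p = 0.674), and the replicate 1 ratio was 0.05 on the log2 scale. CLDN10, a claudin of ion-selective pores, was at 21.5, 18.6 and 19.3 CPM with METTL3 and at 27.0, 23.5 and 24.5 CPM with the vector, with no overlap, and fell by 21.3% on replicates 2 and 3 (adjusted p = 0.00306, edgeR). CLDND1, one of the 2 genes of highest level in the list, had a log2 fold change of -0.14 on replicates 2 and 3 (adjusted p = 0.116, edgeR) and was called lower there with the replicate block (adjusted p = 0.0119).

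Of 9 tested genes for other transmembrane junction proteins, 5 were called higher and 1 lower on replicates 2 and 3, with a median log2 fold change of 0.40. LSR, which with tricellulin marks tricellular contacts, was at 187, 152 and 159 CPM with METTL3 and at 122, 117 and 118 CPM with the vector, without overlap. LSR rose by 31.7% on replicates 2 and 3 (adjusted p = 0.000118, edgeR). Its relative ILDR1 rose by 48.5% (adjusted p = 0.00689), and MARVELD3, the remaining MARVEL protein of the junction, rose by 39.8% (adjusted p = 0.000303, edgeR). The groups did not overlap for either gene. CRB3, an apical polarity protein, rose by 59.4% (adjusted p = 8.31e-05, edgeR) and CXADR, the coxsackie and adenovirus receptor, which was named after its values were seen, by 39.4% (adjusted p = 8.31e-05). The groups overlapped for both CRB3 and CXADR, whose replicate 1 ratios were 0.26 and 0.01 on the log2 scale. On all 6 libraries their adjusted p was 0.64 and 0.676 (edgeR). JAM3, a relative of F11R, was at 23.4, 41.2 and 37.6 CPM with METTL3 and at 34.2, 62.7 and 63.8 CPM with the vector. It was the 1 gene of the list called lower, with a log2 fold change of -0.68 on replicates 2 and 3 (adjusted p = 4.22e-06, edgeR) and -0.65 on all 6 libraries (adjusted p = 0.595), and its replicate 1 libraries were the lowest of their groups.

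Scaffold and polarity genes were mostly not called, with 4 of 24 higher, 1 lower and a median log2 fold change of -0.02 on replicates 2 and 3. With the replicate block 5 were called higher and 4 lower, and with the trend removed 6 higher and 2 lower. Of 22046 tested genes, the block called 2499 higher (11.3%) and 2951 lower. With the trend removed, 2683 of them were called higher (12.2%) and 2013 lower. TJP3, the ZO-3 scaffold, was at 136, 90.6 and 82.8 CPM with METTL3 and at 73.0, 60.7 and 54.6 CPM with the vector. It rose by 50.3% on replicates 2 and 3 (adjusted p = 2.84e-05, edgeR), and the groups did not overlap. CGN, which encodes cingulin, a junction protein that binds ZO-1 and myosin, was at 72.8, 60.7 and 61.1 CPM with METTL3 and at 44.7, 42.6 and 39.8 CPM with the vector, also without overlap, and rose by 47.7% (adjusted p = 1.22e-05, edgeR). PATJ, a polarity scaffold, rose by 41.7% on replicates 2 and 3 (adjusted p = 8.57e-05, edgeR). Its highest library was vector replicate 1 at 59.5 CPM, the replicate 1 ratio was -0.05 on the log2 scale, and on all 6 libraries the log2 fold change was 0.25 (adjusted p = 0.806, edgeR). AMOT, an angiomotin, fell by 36.1% on replicates 2 and 3 (adjusted p = 0.000585, edgeR). The 2 genes of highest level, YBX3 and AFDN, had -0.08 (adjusted p = 0.367) and 0.08 (adjusted p = 0.371, edgeR), close to the 0.09 of TJP1.

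Genes whose products bind, stabilise or modify claudins had 5 of 9 called higher and none lower on replicates 2 and 3, with a median log2 fold change of 0.28. EPCAM encodes a membrane protein that binds and stabilises claudins. EPCAM was at 437, 414 and 432 CPM with METTL3 and at 483, 247 and 271 CPM with the vector, so that vector replicate 1 was the highest of all 6 libraries. It rose by 63.2% on replicates 2 and 3 (adjusted p = 1.67e-06, edgeR), while the replicate 1 ratio was -0.14 on the log2 scale and the log2 fold change on all 6 libraries 0.36 (adjusted p = 0.672). ST14, the membrane protease matriptase that cleaves EPCAM, rose by 39.6% (adjusted p = 1.6e-05, edgeR). Its inhibitor SPINT1, at 350.0, 243 and 237 CPM with METTL3 and at 123, 145 and 136 CPM with the vector, rose by 70.9% (adjusted p = 3.9e-07, edgeR).

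In the adherens junction, the cadherin-based belt below the tight junction, 3 of 10 genes were called higher and 2 lower on replicates 2 and 3, and the median log2 fold change was 0.08. CDH1, the gene of E-cadherin, was at 439, 358 and 346 CPM with METTL3 and at 201, 184 and 189 CPM with the vector, with a wide gap between the groups. It rose by 88.2% on replicates 2 and 3 (log2 fold change 0.91, adjusted p = 7.46e-08, edgeR), and on all 6 libraries its log2 fold change was 0.99 (adjusted p = 0.17). CDH3, the gene of P-cadherin, rose by 50.7% (adjusted p = 0.00018, edgeR). NECTIN2 and NECTIN3, immunoglobulin-like adhesion proteins, fell by 17.4% (adjusted p = 0.00299) and fell by 15.5% (adjusted p = 0.0175, edgeR), in that order, on replicates 2 and 3. The replicate 1 ratio of NECTIN2 went the other way, 0.43 on the log2 scale, and its log2 fold change on all 6 libraries was -0.07 (adjusted p = 0.921, edgeR). The catenin genes CTNNA1 and CTNNB1, the 2 of highest level, had 0.00 and -0.09 (adjusted p = 1 and 0.287, edgeR). The third gene called higher was CDH2, under 1 CPM in every library, which is named after its values were seen. DESeq2 gave CDH2 no adjusted p on replicates 2 and 3, so it could not be called there.

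Of 16 tested transcription and splicing regulators of epithelial genes, 8 were called higher and 3 lower on replicates 2 and 3, and the median log2 fold change was 0.22. GRHL2 was at 64.2, 54.0 and 51.1 CPM with METTL3 and at 46.2, 31.2 and 28.5 CPM with the vector. The groups did not overlap, and GRHL2 rose by 75.8% on replicates 2 and 3 (log2 fold change 0.81, adjusted p = 1.16e-06, edgeR), against 0.68 on all 6 libraries (adjusted p = 0.45). ESRP2, an epithelial splicing factor, rose by 69.9% (adjusted p = 6.93e-07, edgeR), and the zinc-finger repressors of mesenchymal genes OVOL1 and OVOL2 rose by 62.7% (adjusted p = 0.000348) and 102.5% (adjusted p = 0.00883, edgeR), with OVOL2 at only 0.932 to 2.94 CPM over the 6 libraries. ELF3 and KLF5, the 2 of highest level, rose by 15.7% (adjusted p = 0.0121) and 18.3% (adjusted p = 0.00908, edgeR). The 3 genes called lower, named after their values were seen, were ZEB1, SNAI1 and HNF4A. For SNAI1 and HNF4A the groups overlapped, and the replicate 1 ratios were above 0, at 0.16 and 0.43 on the log2 scale. On all 6 libraries their adjusted p was 0.746 and 0.707 (edgeR). SNAI2, also named after its values were seen, was higher with METTL3, and its groups did not overlap. Its log2 fold change on replicates 2 and 3 was 0.26 (adjusted p = 0.127, edgeR). There it was called higher with the replicate block (adjusted p = 0.0164) and with the trend removed (adjusted p = 0.0490, edgeR). ZEB1, which represses junction genes through the E-box, was at 11.5, 27.7 and 25.1 CPM with METTL3 and at 17.5, 38.2 and 35.5 CPM with the vector. Its replicate 1 libraries were the lowest of their groups, and its log2 fold change was -0.48 on replicates 2 and 3 (adjusted p = 0.000253, edgeR) and -0.50 on all 6 libraries (adjusted p = 0.697).

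**Figure D5:**
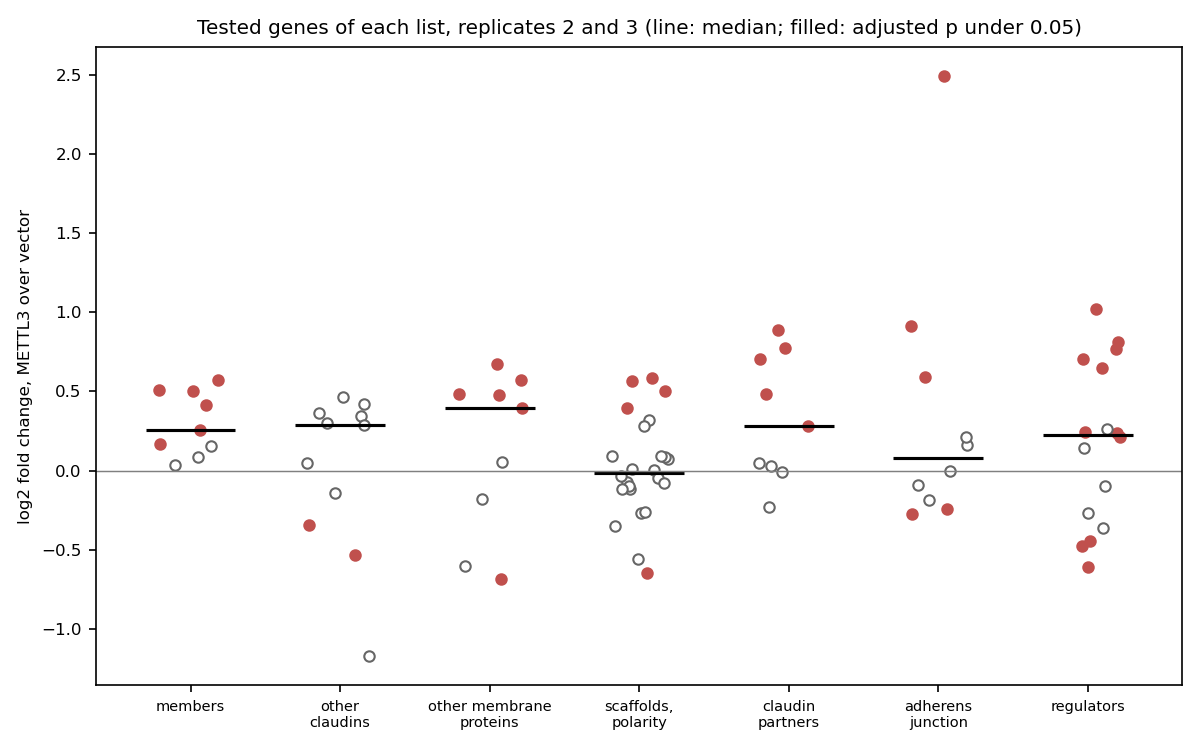
Log2 fold change, METTL3-overexpressing over vector control on replicates 2 and 3, of the 9 members and of the tested genes in each of the 6 other lists, with a line for each median and filled points for an adjusted p under 0.05 by edgeR. The members' median is 0.26, the scaffold and polarity list is centred at -0.02, and the highest point, at 2.49, is CDH2.

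Set beside the E-box and grainyhead matches shown above, the calls fell on members with and without a match. Of the 4 members with an E-box, 2 were called higher on replicates 2 and 3 (CLDN7 and OCLN) and 2 were not (CLDN3 and TJP1), while CLDN1 and CLDN4 were called with no match at their searched starts, and MARVELD2, with the grainyhead core, was called too. CLDN12 had no match and was not called, and F11R was called but had no window to search. The core m6A sequence GGACU, counted as GGACT in the longest transcript of each gene, was present in 8 of the 9 members, with CLDN1 at 0 and CLDN4 at 8. Its median density was 0.777 per kb in the members, against 0.910 per kb over 21986 tested genes with a transcript, 85% of which had at least 1 match. These counts are of letters only, and m6A itself was not measured in these libraries.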

How the data were processed

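mRNA of OVCAR5 cells was sequenced in 3 METTL3-overexpressing and 3 vector control libraries. The submitters' processing notes name fastp, HISAT2 and featureCounts of Subread, with GRCh38 (hg38). The authors deposited raw read counts per gene, whole numbers without normalization. Versions, annotation and the handling of strand and of multi-mapping reads are not given in the sources used here. Sources differ on the kit, stranded TruSeq in the labels and NEBNext with reads from 1 end in the study's methods. Between 67.6% and 70.5% of counts from 1 to 20 were even, so counts divided by 2 were an alternative.

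Identifiers without version were matched to GENCODE release 44, which named 60463 of 60649 rows, and members were found by identifier. The members and lists were chosen with earlier results of these data known, and so was the use of replicates 2 and 3 alone. The quasi-likelihood test of edgeR 4.0.16 (R 4.3.3; filterByExpr, TMM factors, robust fit) was adjusted by Benjamini-Hochberg over all tested genes, with a threshold of 0.05. A standard error is the absolute log2 fold change divided by the root of the F statistic. CPM used the TMM factors. Likeness used log2 CPM with a prior of 0.1 CPM. Alternatives were DESeq2 1.42.0 (the authors' tool), other scalings and filters, removal of a spline trend (5 degrees of freedom) in GC content and length, a replicate block and leaving out each library. Scripts were tested on simulated data.

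From each list the text names up to 4 genes that passed, by size of change, on all 6 libraries, up to 4 with a mean of at least 1 CPM on replicates 2 and 3, and the 2 of highest level; 1 gene this rule names is not reported here. Deviations of same-numbered libraries from their group means correlated at 0.33, 0.12 and 0.17, each above the minimum of 0.1, which met the rule for paired libraries. The tests in the text have no block unless one is named. This pairing comes from the values, and 2 pairings of different numbers also passed (0.13 and 0.21).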

Additional observations from a re-analysis of the deposited data

How the results depend on the processing

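The calls depended on the replicate 1 libraries. Against 0 genes, 0 members and 0 genes of the other lists called by edgeR on all 6 libraries, replicates 2 and 3 gave 3362, 6 and 34. The same 4 libraries gave 3233, 6 and 33 with DESeq2, and 4696, 7 and 42 with the GC and length trend removed. On all 6 libraries DESeq2 called 280 genes and 7 of the other lists, no filter on low counts gave 560 genes and 10 of the other lists, and removing the trend gave 1 gene. None of these called a member. Leaving out 1 library gave 0 to 367 genes, 0 to 1 member and 0 to 8 of the other lists, the highest each time without vector replicate 1. The replicate block on all 6 libraries called 0 genes and changed no call there, and on replicates 2 and 3 the block gave 5450 genes, 7 members and 45 genes of the other lists. The share of calls that were higher with METTL3 was 43.7% on replicates 2 and 3 and 57.1% there with the trend removed. CLDN3 (log2 fold change 0.23) ranged from -0.052 without METTL3 replicate 1 to 0.38 with 1 library left out. TJP1, near 0, ranged from -0.043 without METTL3 replicate 2 to 0.13, was at -0.0054 without vector replicate 1, and reversed to -0.027 with the trend removed and to -0.14 in replicate 1 only. The cause was not tested. Of 162 tested alternative values of the 9 members, 131 kept direction and side of the threshold, 27 passed it newly and 4 reversed. Of the 9 values from replicate 1 only, which have no test, 7 stayed within the spread between replicates, 1 moved and 1 reversed. That spread, and the value on all 6 libraries compared with, include replicate 1, so staying within it does not show agreement with replicates 2 and 3. OCLN and CLDN7 were among the 7, at 0.07 and 0.10 in replicate 1 against 0.57 and 0.51 on replicates 2 and 3. Alternatives with replicates 2 and 3 beyond the first were chosen after seeing the data.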
